A study of Mus musculus with 18 samples.

Results

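The 46 genes described here code for the peroxisome proliferator-activated receptors (PPARs) and the proteins that take up, activate and oxidise fatty acids. They were chosen by name from knowledge of the pathway, with earlier results of these data known, so the list is not independent of the values. All 46 were found among the 19518 genes of the table and passed the filter on low values (3 or more libraries at 1 or above), as did 12031 genes in all. All are protein coding and they lie on 18 chromosomes. PPARs are nuclear receptors that bind fatty acids and sit on DNA paired with a retinoid X receptor. PPAR alpha is known for raising transcription of fatty acid oxidation genes in liver and in the proximal tubule, the kidney segment that draws much of its energy from fatty acids. In beta oxidation a fatty acid is activated to a CoA ester, carried into the mitochondrion on carnitine, and shortened in repeated rounds, while peroxisomes shorten very long and branched chains.

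Kidney RNA of 10-week-old ICR mice (an outbred stock) was sequenced in 18 libraries, which form 6 groups of 3. In 3 of the groups a high fat diet (HFD) was combined with a treatment. HFD+AOS-FMT mice received a faecal microbiota transplant (FMT, a transfer of gut microbes) labelled AOS at 10 mg/kg, HFD+control-FMT mice received a control transplant, and HFD+AOS mice were given AOS at 10 mg/kg. HFD mice had the diet alone, AOS mice had AOS at 10 mg/kg without the diet, and control mice had neither. AOS is written as the labels give it. Who donated the transplants, how long the diet lasted and the hour of collection were not given in the sources used. The labels do not say whether libraries of 1 group are different animals, and the p-values therefore cover the spread between libraries alone, which may be technical.

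The values are the authors' normalized signals per gene, and differences are given as log2 after adding 1, a scale on which low genes appear to change less than they do. Read numbers are unknown. From steps in the low values of 129 genes, relative depth was 0.879 in control replicate 3 and 0.913 in control replicate 1, and lay between 0.976 and 1.023 elsewhere. Markers of the labelled tissue were present, since each of 11 proximal tubule markers reached 1 in at least 1 library and their sum was at least 4019.9 in all 18. Control replicate 3 stood apart from the rest. It correlated with the other libraries at r = 0.948 to 0.963 over the tested genes, held 2.48% of its summed values in Kap, a proximal tubule protein under androgen control, against 17.2% to 22.9% in the other 17, and had adrenal cortex markers summing to 900.07, against 0.81 to 2.22. Transcripts of testis germ cells (Prm1, Prm2, Tnp1, Tnp2 and Odf1) summed to 25.45 to 38.44 in the 3 control libraries and HFD replicates 1 and 2, and to at most 0.30 in the other 13. All control libraries held them and no HFD+AOS-FMT, HFD+control-FMT, HFD+AOS or AOS library did, so a fit with this split as a factor separates it from the groups through the 3 HFD libraries alone. Among these, Ppara had 11.5 and 10.2 in the 2 libraries with germ cell transcripts and 11.2 in the 1 without, and Ppard had 32.4 and 28.3 with them and 30.4 without. For most named member differences that rest on control replicate 3, a value without it is given. No such value is given for the clock genes and the further pathway lists.

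Among the receptors, the level of Ppara (PPAR alpha, chromosome 15, 85734983 to 85802819, plus strand, GRCm38) was higher in HFD+AOS than in HFD kidneys. It had 16.3, 18.04 and 16.9 in HFD+AOS-FMT libraries, 14.9, 14.9 and 13.1 in HFD+control-FMT, 20.8, 18.3 and 14.7 in HFD+AOS, 11.5, 10.2 and 11.2 in HFD, 10.6, 11.5 and 10.4 in AOS and 8.90, 10.96 and 12.1 in control libraries. Every library of the 3 treated HFD groups was above every HFD, AOS and control library. The level averaged 17.9 ± 3.06 in HFD+AOS and 10.97 ± 0.694 in HFD libraries (SD, n = 3 each), and this difference passed the test, limma with Benjamini-Hochberg adjustment over all 12031 genes and a threshold of 0.05 (log2 difference 0.65, SE 0.11, adjusted p = 0.0225). Ppara was also higher in HFD+AOS-FMT than in control libraries (17.1 ± 0.870 against 10.7 ± 1.64, log2 difference 0.64, SE 0.11, adjusted p = 0.0127). HFD+AOS-FMT against HFD missed the threshold (log2 difference 0.60, SE 0.11, adjusted p = 0.0528), as did HFD+control-FMT against HFD (log2 difference 0.35, SE 0.11, adjusted p = 1) and HFD+AOS-FMT against HFD+control-FMT (log2 difference 0.25, SE 0.11, adjusted p = 0.709). In the F test over the 6 groups Ppara was the 1 member that passed (adjusted p = 0.0138), against 1.02% of all genes. Without control replicate 3, 7 members passed it, against 6.36% of genes. Off the high fat diet, AOS differed from control by 0.03 (adjusted p = 0.915). The difference between the changes with AOS on the 2 diets did not pass (log2 difference 0.62, SE 0.16, adjusted p = 0.286). Without control replicate 3 it was 0.53 (adjusted p = 0.35).

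Leaving out HFD+AOS replicate 1 or 2, or any 1 of the HFD libraries, put the adjusted p for HFD+AOS against HFD between 0.0609 and 0.104, while without control replicate 3, which enters that comparison only through the shared spread, it was 0.00296. The call against control was kept without each of its 6 libraries in turn (adjusted p = 0.00376 to 0.0454), and both calls were lost with germ cell transcripts as a factor, at differences of 0.61 and 0.59 (adjusted p = 0.241 and 0.592). Over all settings tried the 2 differences lay between 0.54 and 0.78 and between 0.53 and 0.73. In whole kidney, fewer cells of a type and less RNA per cell cannot be told apart, here or in any result below.

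Ppard (PPAR delta, a receptor found in many tissues, chromosome 17, 28232700 to 28301474, plus strand) ran the other way, and varied more than any other member with a value above 0 in every library. It had 5.79, 7.45 and 6.07 in HFD+AOS-FMT libraries, 19.5, 14.5 and 11.4 in HFD+control-FMT, 8.23, 9.50 and 8.21 in HFD+AOS, 32.4, 28.3 and 30.4 in HFD, 29.4, 16.4 and 27.7 in AOS and 54.7, 61.6 and 9.47 in control libraries, a 10.6-fold range. Control replicate 3 lay far below the other two and next to the treated HFD libraries. Ppard fell in HFD+AOS-FMT relative to control libraries (6.44 ± 0.889 against 41.9 ± 28.3, log2 difference -2.16, SE 0.48, adjusted p = 0.0334), and without control replicate 3 that difference was -2.996 (adjusted p = 3.72e-05). Leaving out any other library of this comparison put the adjusted p between 0.0521 and 0.108. Against HFD, where groups also did not overlap, the adjusted p was 0.0889 for HFD+AOS-FMT (log2 difference -2.08, SE 0.48) and 0.108 for HFD+AOS (log2 difference -1.70, SE 0.48). Without control replicate 3 these were 0.000425 and 0.000743, with the same differences and an SE of 0.20 in each, against 0.48 with it.

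As a description chosen after the values were seen, the ratio of the Ppara level to the Ppard level was 2.42 to 2.82 in HFD+AOS-FMT, 0.762 to 1.15 in HFD+control-FMT, 1.79 to 2.53 in HFD+AOS, 0.354 to 0.370 in HFD and 0.360 to 0.699 in AOS libraries. It was 0.163 and 0.178 in control replicates 1 and 2 and 1.28 in control replicate 3. Over the 18 libraries the 2 genes ran at r = -0.83, and at -0.86 without control replicate 3, with group and library shared by the points.

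**Figure D1:**
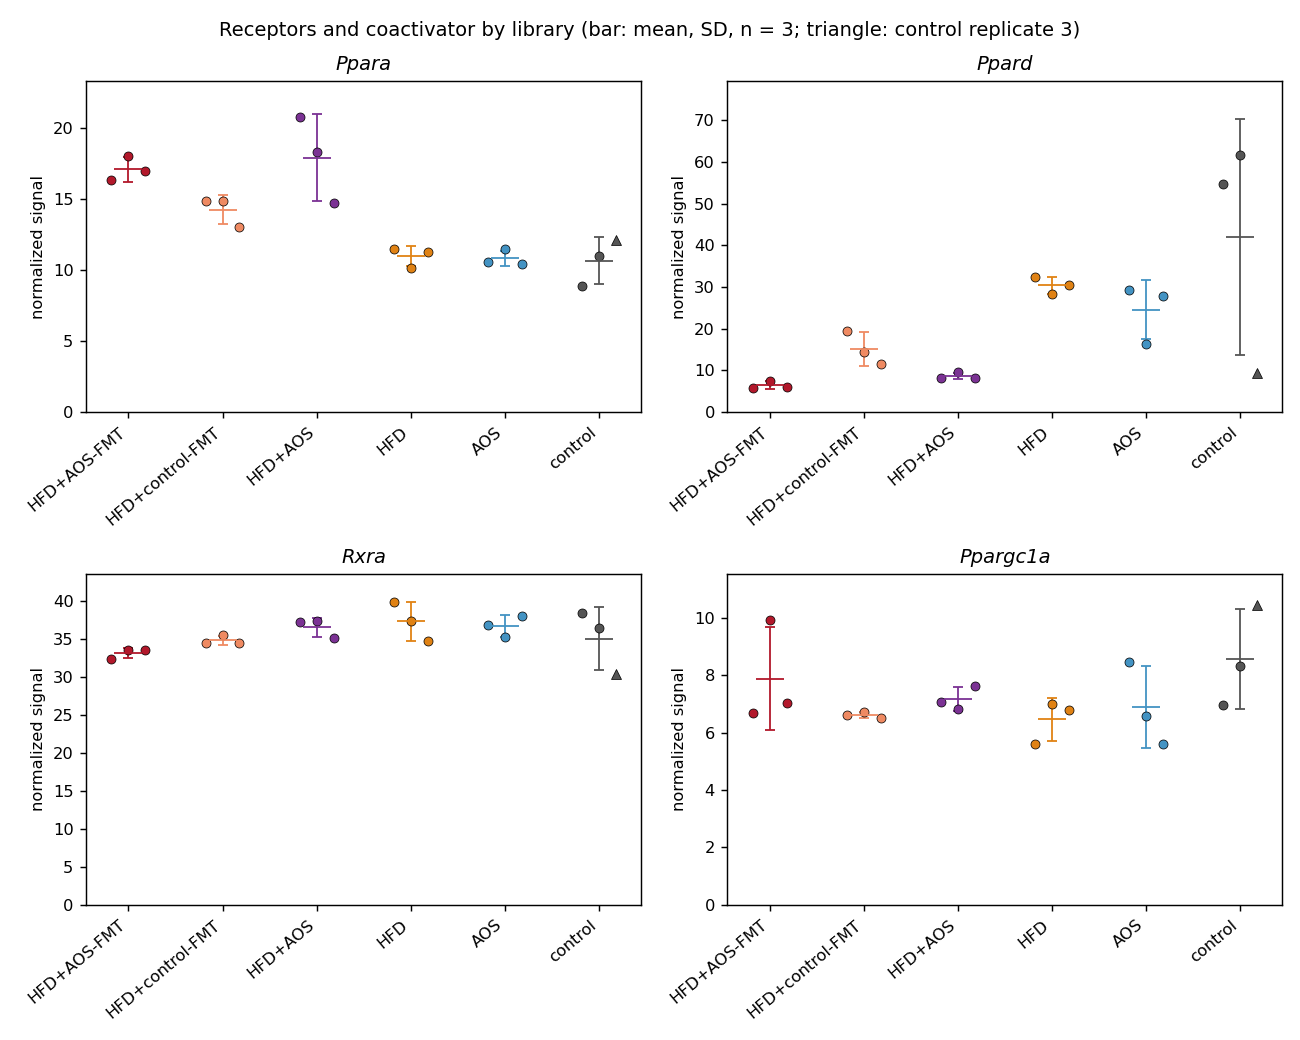
Normalized signal of Ppara, Ppard, Rxra and Ppargc1a (y axes, from 0) in the 18 libraries by group (x axes), with points for libraries, bars for mean and SD, and a triangle for control replicate 3. Ppara sits between 13.1 and 20.8 in the 3 treated HFD groups and at or below 12.1 elsewhere, Ppard is lowest in HFD+AOS-FMT, and the control replicate 3 triangle lies at 9.47 for Ppard.

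Rxra, the retinoid X receptor that pairs with PPARs, had the highest level of the 4 regulators, with 32.4 to 33.5 in HFD+AOS-FMT, 34.4 to 35.5 in HFD+control-FMT, 35.1 to 37.3 in HFD+AOS, 34.7 to 39.8 in HFD, 35.2 to 37.99 in AOS and 30.3 to 38.3 in control libraries. No comparison of it passed. Ppargc1a, a coactivator that raises mitochondrial gene transcription, lay between 5.62 and 10.4 with no call.

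The promoters shown are those of the 4 members that passed in any comparison in the fit of all 18 libraries (Ppara, Ppard, Slc27a2 and Acox3). Each runs from 250 bases before to 50 bases after the RefSeq start on GRCm38.p6, plus strand, and capitals mark a match to the hexamer AGGTCA, the core sequence that PPARs and other nuclear receptors bind, read here on the minus strand.
Ppara (chr15:85735526-85735825): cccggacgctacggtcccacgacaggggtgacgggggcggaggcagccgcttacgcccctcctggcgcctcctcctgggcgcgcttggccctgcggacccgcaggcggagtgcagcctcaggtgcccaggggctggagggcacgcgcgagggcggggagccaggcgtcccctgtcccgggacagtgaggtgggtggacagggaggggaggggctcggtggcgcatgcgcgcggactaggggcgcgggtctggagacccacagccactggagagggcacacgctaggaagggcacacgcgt
Ppard (chr17:28232504-28232803): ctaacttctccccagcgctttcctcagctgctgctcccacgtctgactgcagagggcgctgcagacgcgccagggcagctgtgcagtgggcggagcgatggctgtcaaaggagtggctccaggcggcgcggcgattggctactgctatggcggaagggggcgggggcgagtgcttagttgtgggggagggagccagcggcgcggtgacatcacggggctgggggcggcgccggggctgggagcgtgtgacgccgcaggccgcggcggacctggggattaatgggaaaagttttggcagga
Slc27a2 (chr2:126552774-126553073): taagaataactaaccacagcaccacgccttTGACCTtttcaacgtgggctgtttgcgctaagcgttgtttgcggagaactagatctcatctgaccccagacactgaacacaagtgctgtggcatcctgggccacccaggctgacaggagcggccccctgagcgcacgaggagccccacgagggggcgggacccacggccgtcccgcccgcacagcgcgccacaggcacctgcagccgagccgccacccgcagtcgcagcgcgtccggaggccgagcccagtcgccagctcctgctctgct
Acox3 (chr5:35582784-35583083): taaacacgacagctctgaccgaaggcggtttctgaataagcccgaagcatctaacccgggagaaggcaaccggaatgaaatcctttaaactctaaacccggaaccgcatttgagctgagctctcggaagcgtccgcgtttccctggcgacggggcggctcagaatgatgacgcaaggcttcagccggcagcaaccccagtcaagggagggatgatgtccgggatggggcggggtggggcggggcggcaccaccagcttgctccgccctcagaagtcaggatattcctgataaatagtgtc
In all, 4 motifs were searched on both strands. The direct repeat AGGTCANAGGTCA, which holds the hexamer, the E-box CACGTG and the D-box TTATGTAA, which clock factors bind, had no match in these 4 windows, and the hexamer, added after that was seen, matched once, in Slc27a2, starting 220 bases before the start. Over all 32851 windows of the table the hexamer was in 16.3%, the direct repeat in 0.0396%, the E-box in 7.15% and the D-box in 0.938%. RefSeq windows matched 41 of the 46 members, some with more than 1 window, and the hexamer was in 9 of their 46 windows, the E-box in 1 (Slc27a1) and the other 2 motifs in 0. A match is a description of these letters, and a window without one says nothing about the factor.

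Levels of circadian clock genes are given beside those of the receptors. Of 13 clock genes, 2 passed in HFD+AOS against HFD (0.823% of all genes did), with Hlf, a clock output transcription factor, higher (log2 difference 0.61, adjusted p = 0.00234) and Arntl, the core activator of the clock, lower (log2 difference -1.91, adjusted p = 0.0399). In HFD+AOS-FMT against control the same 2 genes passed in these directions (2.32% of all genes passed), and in HFD+AOS-FMT against HFD 1 did, Hlf (0.175% of all genes). At an unadjusted p under 0.05 in limma, 7 of the 13 were higher and 4 lower in HFD+AOS against HFD (15.1% of all genes). Counts were 7 and 3 in HFD+AOS-FMT against HFD (13.3%), and 6 and 4 in HFD+AOS-FMT against control (19%). The summed level of the 13 genes was 283 to 334 in HFD+AOS-FMT, 166 to 239 in HFD+control-FMT, 294 to 331 in HFD+AOS, 127 to 157 in HFD and 153 to 216 in AOS libraries, and in control libraries 118.15 and 129.85 in replicates 1 and 2 and 347.25 in replicate 3. The sum mixes genes that ran in opposite directions. Genes of high level lead it, such as Dbp and Tef, a clock output factor at 40.6 to 102. Arntl itself had 1.30, 1.86 and 1.96 in HFD+AOS-FMT, 8.42, 8.51 and 3.39 in HFD+control-FMT, 2.41, 1.84 and 1.48 in HFD+AOS, 10.9, 8.64 and 10.02 in HFD, 6.75, 4.59 and 8.24 in AOS and 12.5, 10.1 and 2.71 in control libraries. The 7 libraries with Arntl under 3, control replicate 3 among them, are the 7 with Ppard under 10. Dbp, a clock output factor that runs opposite to Arntl, had 97.8, 68.4 and 63.8 in HFD+AOS-FMT, 10.4, 13.1 and 43.7 in HFD+control-FMT, 69.7, 72.3 and 92.9 in HFD+AOS, 3.26, 10.2 and 3.36 in HFD, 25.98, 36.5 and 11.5 in AOS and 2.76, 6.90 and 90.6 in control libraries. HFD+control-FMT and AOS libraries lay between the extremes. Ppara stood at 12.1 in control replicate 3. It was 14.9 in both HFD+control-FMT replicates 1 and 2, where Arntl was near its HFD level. In those 2 libraries Hlf had 28.7 and 27.5, against 20.2 to 23.7 in HFD libraries. Tef had 67.8 and 61.9 there, against 43.1 to 57.2. Nr1d1, another clock gene, had 20.25 and 15.2, which overlapped 11.1 to 20.25 in HFD libraries. What part the clock has in the levels of Ppara and Ppard was not tested.

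**Figure D2:**
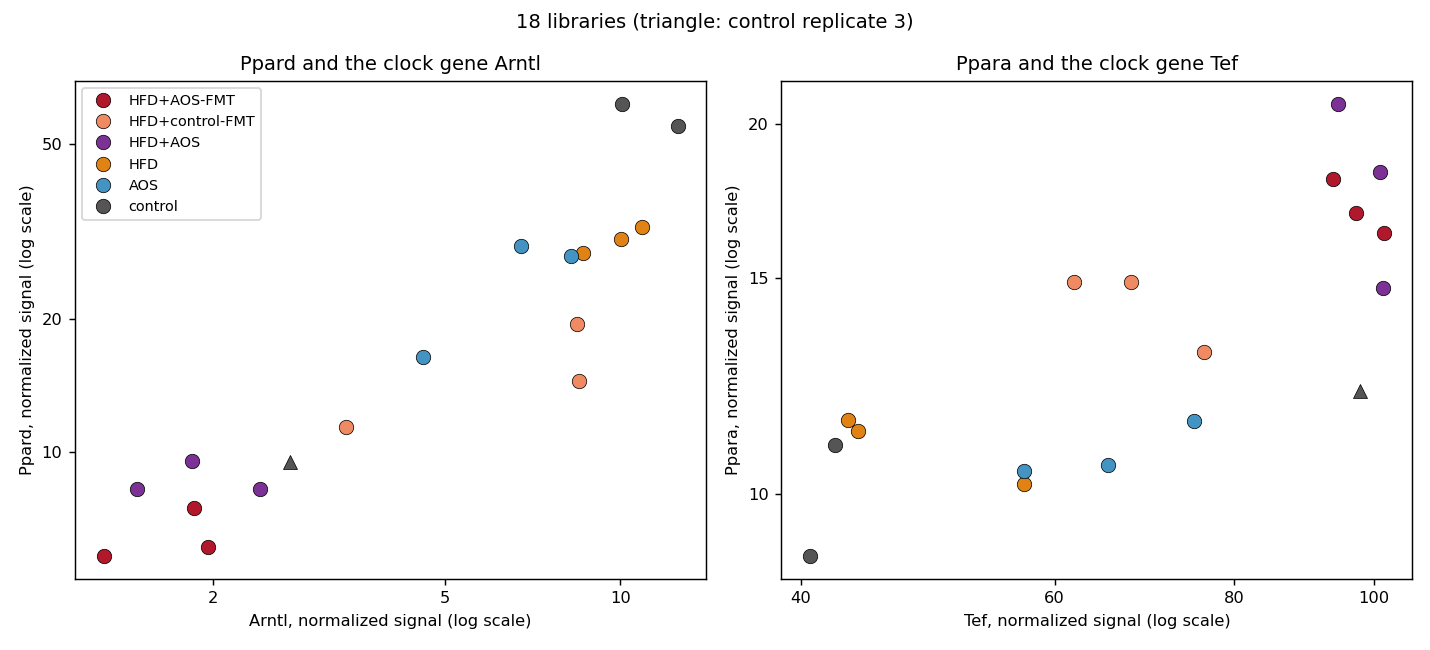
Ppard against Arntl (left) and Ppara against Tef, a clock output factor chosen after values were seen (right), on log scales of normalized signal, 1 point per library coloured by group with a triangle for control replicate 3. Ppard is high where Arntl is high, and the HFD+AOS-FMT and HFD+AOS libraries lie at the high end of both Ppara and Tef, while control replicate 3 has Tef at 97.8 with Ppara at 12.1.

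Set against HFD, HFD+AOS had 2 of 46 members past the threshold, Ppara and Acox3, both higher, against 0.823% of all tested genes. At an unadjusted p under 0.05 there were 7 members higher and 4 lower, and this count of 11 stands against 15.1% of all genes. The groups did not overlap for 8 members above and 5 below, 13 of 46, against 28.2% of all genes. The median difference over the 46 members was 0.01, and 0.01 over all tested genes. Without control replicate 3, which is in neither group and enters through the shared spread, 10 members passed, against 6.84% of genes, with Ppara, Acox3, Slc27a2, Cpt1a, Acad11 and Hsd17b4 higher and Ppard, Acsl1, Etfb and Acads lower. The list as a whole had no common direction, with 24 members higher and 22 lower at any size.

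HFD+AOS-FMT against HFD gave 0 members past the threshold in limma, against 0.175% of all genes, with 7 higher and 4 lower at an unadjusted p under 0.05 (13.3% of all genes in either direction). Groups did not overlap for 12 members above and 3 below, against 25.2% of all genes. Without control replicate 3, 5 members passed, with Ppara, Slc27a2, Acox3 and Eci2 higher and Ppard lower, against 4.89% of genes. HFD+control-FMT against HFD gave 0 calls (0% of all genes) and 2 members at an unadjusted p under 0.05, Ppara and Acox3, both higher (4.5% of all genes). Groups did not overlap for 7 above and 2 below, against 15.4% of all genes. HFD+AOS-FMT against HFD+control-FMT gave 0 calls (0% of all genes), with 4 higher and 2 lower at an unadjusted p under 0.05 (7.02%), and groups did not overlap for 8 above and 3 below (18%). The calls without control replicate 3 were 0 among members and 0.117% among genes. The 4 higher were Acsl3, Slc27a2, Echs1 and Ppara, and the 2 lower were Etfb and Ppard. These comparisons share the HFD or the HFD+AOS-FMT libraries, so their values are not independent of each other.

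HFD+AOS-FMT against control gave 3 calls, Ppara and Slc27a2 higher and Ppard lower, against 2.32% of all genes, with 5 members higher and 5 lower at an unadjusted p under 0.05 (19%). Groups did not overlap for 7 above and 2 below, against 16% of all genes. Without control replicate 3 the same 3 members passed, against 4.36% of genes. A fit of the 2 compared groups alone ended the calls of Ppara, Ppard and Slc27a2 (adjusted p = 0.316, 0.554 and 0.597), as did germ cell transcripts as a factor (adjusted p = 0.592, 0.649 and 0.695). The differences kept their sign in every setting tried, at 0.53 to 0.73 for Ppara, -2.996 to -1.71 for Ppard and 0.26 to 0.45 for Slc27a2. HFD against control gave 0 calls (0% of all genes), with 1 member higher and 5 lower at an unadjusted p under 0.05 (17.4%), and 2 above and 2 below without overlap (15.7%). AOS against control gave 0 calls (0.0332% of all genes), with 0 higher and 8 lower at an unadjusted p under 0.05 (12.7%). In that comparison 9 members did not overlap, all below, against 13.2% of all genes in either direction, and 13 members were higher and 33 lower at any size. The median member difference was -0.15 against -0.09 over all genes, and -0.07 against -0.01 without control replicate 3. The test of whether the change with AOS differed between the diets called 0 members (0% of all genes), with 7 higher and 1 lower at an unadjusted p under 0.05 (12.4%).

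**Figure D3:**
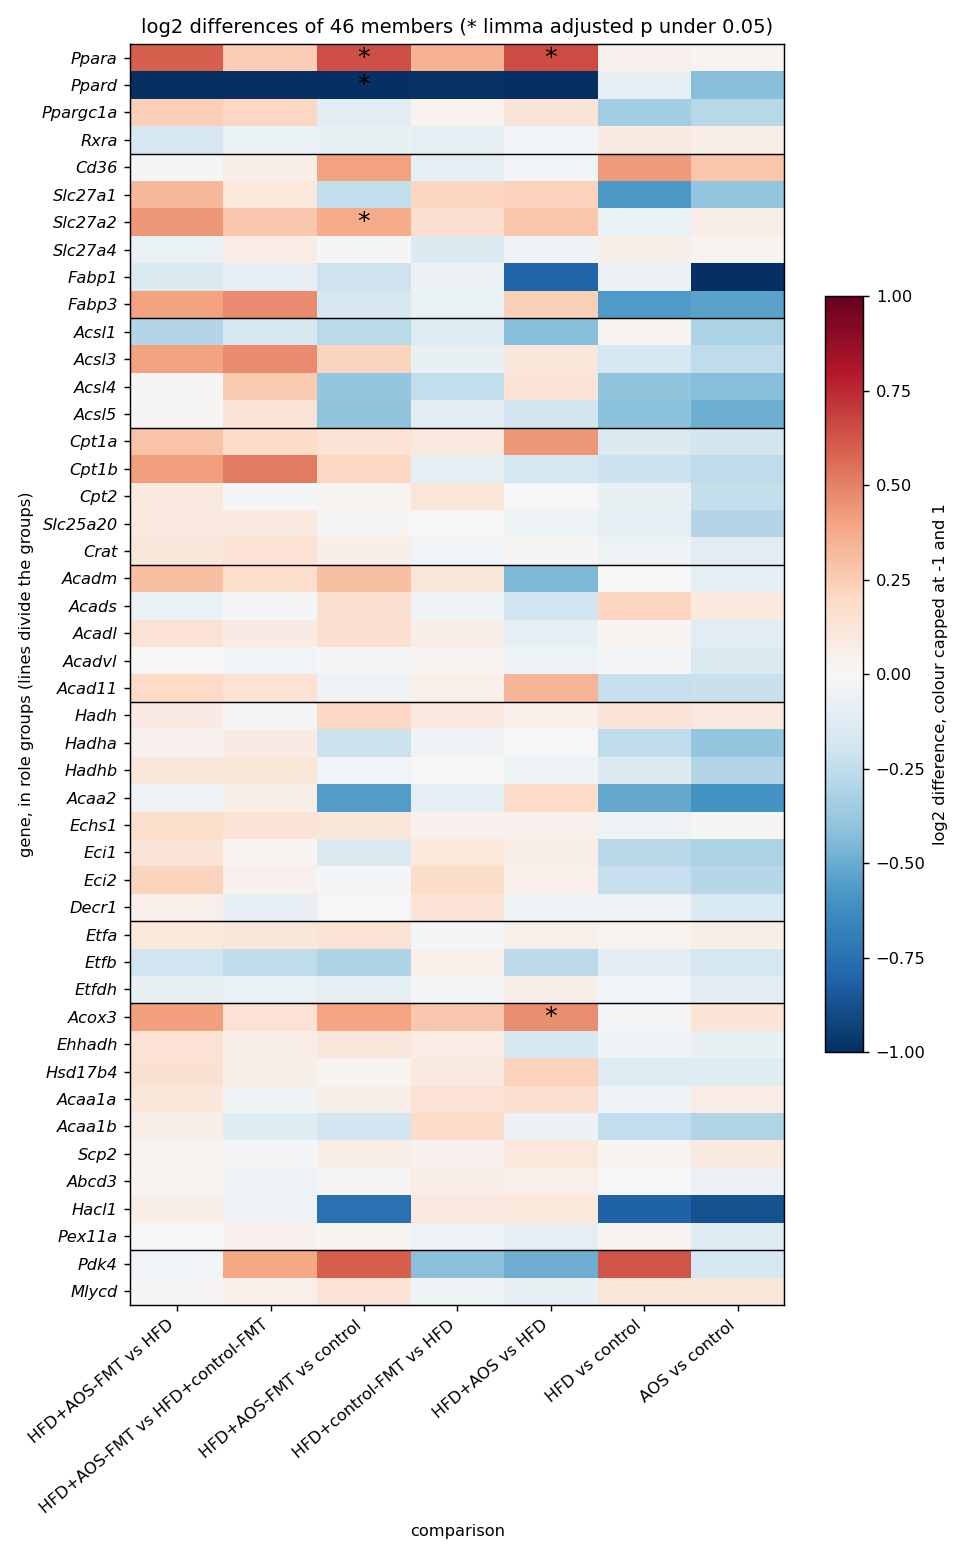
Log2 differences of the 46 members (rows, in role groups divided by lines) in 7 comparisons (columns), coloured from -1 to 1 with larger values capped and a star where the limma adjusted p is under 0.05. The 5 stars are Ppara and Acox3 in HFD+AOS vs HFD and Ppara, Ppard and Slc27a2 in HFD+AOS-FMT vs control, and most cells are pale.

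The 6 uptake and binding genes spanned the widest range of levels, from a mean of 0.878 for Fabp1 to 1401 for Slc27a2. Slc27a2 (chromosome 2, 126552407 to 126588243, plus strand) codes for an acyl-CoA synthetase of very long chains that also takes up fatty acids and is abundant in the proximal tubule. It had 1710.4, 1662 and 1618 in HFD+AOS-FMT libraries, 1434, 1269.6 and 1445 in HFD+control-FMT, 1458, 1458 and 1555 in HFD+AOS, 1234, 1209 and 1240.5 in HFD, 1422, 1341 and 1279 in AOS and 1422, 1365 and 1090.4 in control libraries. All 3 HFD+AOS-FMT libraries were above the other 15, and control replicate 3 was the lowest. Slc27a2 rose in HFD+AOS-FMT relative to control libraries (1663 ± 46.4 against 1293 ± 177, log2 difference 0.37, SE 0.09, adjusted p = 0.0416), and by 0.26 without control replicate 3 (adjusted p = 0.0353). Leaving out any 1 HFD+AOS-FMT library put the adjusted p between 0.0964 and 0.119, and it was 0.0535 with quantile normalization. Against HFD the adjusted p was 0.0671 for HFD+AOS-FMT (log2 difference 0.44) and 0.151 for HFD+AOS (log2 difference 0.28). Proximal tubule markers summed to 6708 to 7354 in HFD+AOS-FMT, 6355 to 6978 in HFD+control-FMT, 7282 to 7988 in HFD+AOS, 6664 to 6890.03 in HFD and 6600.1 to 6815 in AOS libraries, and to 6511, 6930.2 and 4020 in the 3 control libraries. Their part in the levels of Slc27a2 and of the enzymes below was not tested.

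Slc27a1, a long chain fatty acid transporter, had the smallest p of the members in HFD against control, with 6.67, 8.35 and 8.06 in HFD and 9.21, 10.2 and 17.8 in control libraries. The groups did not overlap, but the difference did not pass (log2 difference -0.57, SE 0.21, adjusted p = 0.241), and the highest of the 18 libraries was control replicate 3. Without that library the difference was -0.30 (adjusted p = 0.813). Cd36, a fatty acid translocase, was at 203 to 303 in 17 libraries and 88.7 in control replicate 3. Slc27a4, a transporter related to Slc27a1, ran from 13 to 15.6 in the 18 libraries. Fabp3, the heart-type fatty acid binding protein, ran from 57.3 to 112 in 17 libraries and stood at 245 in control replicate 3. Fabp1, the liver-type binding protein, was listed at 0 in 7 libraries and reached at most 2.45.

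Among the 4 acyl-CoA synthetases, which attach CoA to long chain fatty acids, no member passed in any comparison. Acsl1 was the most abundant, with 49.8, 42.3 and 44.3 in HFD+AOS and 63.1, 57.5 and 63.6 in HFD libraries, groups that did not overlap (log2 difference -0.43, SE 0.11, adjusted p = 0.0897, and 0.0358 without control replicate 3). Markers of white fat, a tissue rich in Acsl1, summed to 97.1 to 307 in HFD+AOS and 207 to 589.9 in HFD libraries, and their part was not tested. Acsl5 had 20.5, 16.2 and 18.7 in AOS and 23.7, 21.1 and 35.9 in control libraries, below in all 3 (log2 difference -0.49, SE 0.16, adjusted p = 0.345), and 17.6, 20.97 and 19.97 in HFD libraries (log2 difference -0.41, SE 0.16, adjusted p = 0.248 against control). The Acsl5 differences without control replicate 3 were -0.27 and -0.19. Acsl3 had 7.67, 9.02 and 9.72 in HFD+AOS-FMT against 5.93, 5.94 and 6.26 in HFD+control-FMT libraries, the smallest p in that comparison (log2 difference 0.47, SE 0.14, adjusted p = 0.523). All 3 HFD+AOS-FMT libraries were above the others there, although HFD replicate 1, at 8.90, lay within their range. Acsl4, which prefers arachidonic acid, was at 5.85 to 9.05 in 17 libraries and at 15.2 in control replicate 3.

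The carnitine shuttle moves acyl groups across the inner mitochondrial membrane, and none of its 5 members passed. Cpt1a, the rate-limiting carnitine palmitoyltransferase of the outer membrane, had 108, 115 and 111 in HFD+AOS-FMT, 98.1, 93.95 and 102 in HFD+control-FMT, 135, 124 and 112 in HFD+AOS, 93.8, 98.1 and 82.7 in HFD, 88.2, 101 and 78.7 in AOS and 96.3, 88.5 and 121 in control libraries. The HFD+AOS libraries were above all HFD libraries (log2 difference 0.43, SE 0.11, adjusted p = 0.0897, and 0.0124 without control replicate 3). The change with AOS on HFD exceeded that without HFD by 0.61, which did not pass (SE 0.16, adjusted p = 0.286). Without control replicate 3 it exceeded it by 0.48 (adjusted p = 0.336). Cpt2, which returns the acyl group to CoA on the inner membrane, had 71.2, 60 and 64.9 in AOS and 78.99, 69.8 and 82.4 in control libraries, overlapping groups (log2 difference -0.23, SE 0.08, adjusted p = 0.355). Slc25a20, the carnitine-acylcarnitine carrier, ran from 15.7 to 23.2, and Crat, the acetyltransferase, from 58.3 to 72.8 in 17 libraries, and both were highest in control replicate 3 (30.02 and 76.2). Cpt1b, the muscle and brown fat form, ran from 5.17 to 13.6.

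**Figure D4:**
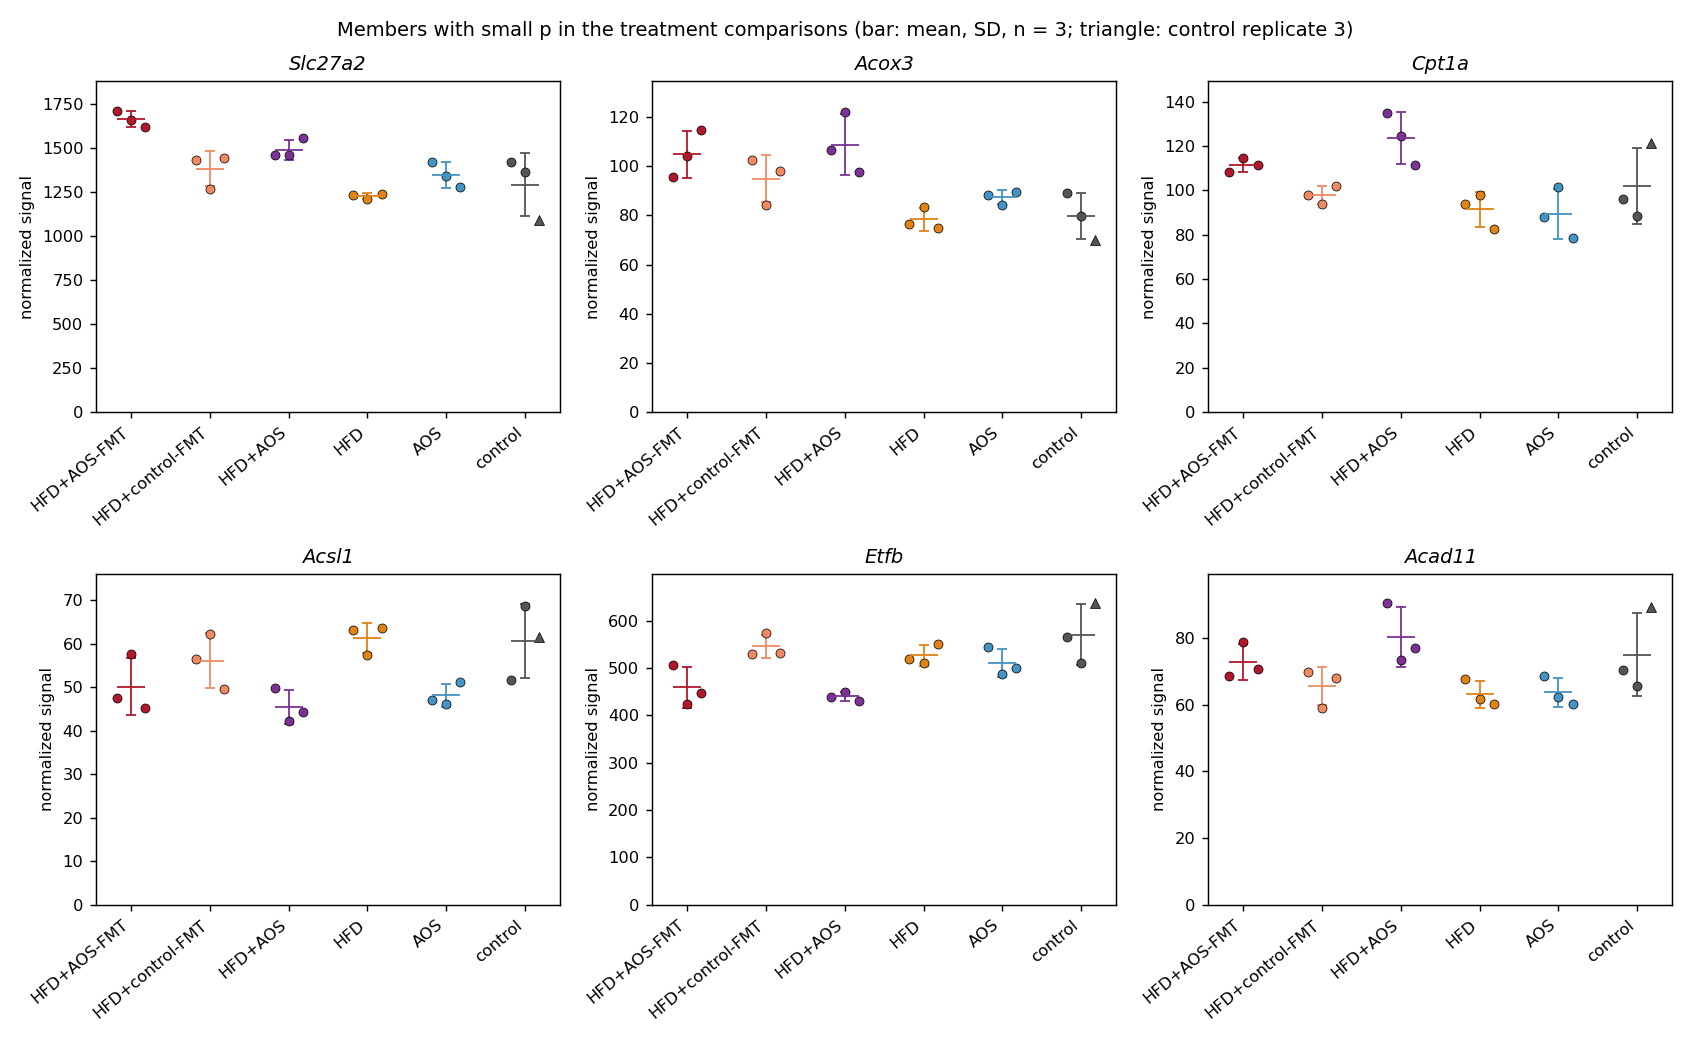
Normalized signal (y axes, from 0) of Slc27a2, Acox3, Cpt1a, Acsl1, Etfb and Acad11, chosen after their values were seen, by group (x axes), with points for libraries, bars for mean and SD, and a triangle for control replicate 3. Slc27a2 is highest in HFD+AOS-FMT, at 1618 to 1710.4, while Acsl1 and Etfb are lower in HFD+AOS than in HFD.

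The 5 acyl-CoA dehydrogenases, which open each round of oxidation by chain length, had no call. Acadm, the medium chain form and the most abundant at a mean of 547.7, had 692, 728 and 598 in HFD+AOS-FMT, 534, 564 and 695 in HFD+control-FMT, 325, 458 and 429 in HFD+AOS, 432, 600.2 and 625 in HFD, 570.4, 484 and 478 in AOS and 572, 631 and 445 in control libraries. HFD+AOS overlapped HFD only through HFD replicate 1 (log2 difference -0.45, SE 0.17, adjusted p = 0.223). Acad11, which acts on very long chains, had 90.4, 73.4 and 77.1 in HFD+AOS and 67.8, 61.6 and 60.2 in HFD libraries, groups apart (log2 difference 0.34, SE 0.11, adjusted p = 0.157, and 0.0333 without control replicate 3). Its AOS change by diet was 0.56 (adjusted p = 0.323), and 0.43 without control replicate 3 (adjusted p = 0.361). Acads, the short chain form, had 122, 119 and 126 in HFD and 119.5, 112 and 87.2 in control libraries (log2 difference 0.21, SE 0.09, adjusted p = 0.26), with control replicate 3 the lowest of all 18 and a difference of 0.08 without it. Acadl and Acadvl, the long and very long chain forms, ran from 135 to 183 and from 139 to 171.

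The later steps in mitochondria are hydration, a second dehydrogenation and thiolysis, with isomerases and a reductase for unsaturated chains, and none of their 8 members passed. Hadh, the short chain hydroxyacyl-CoA dehydrogenase, was the most abundant, at 389.9 to 474 in 17 libraries and 333 in control replicate 3. Hadha, the alpha subunit of the trifunctional protein, had 55.3, 49.95 and 52.8 in AOS and 61.4, 58 and 92.3 in control libraries, groups apart (log2 difference -0.39, SE 0.13, adjusted p = 0.354), and the difference was -0.18 without control replicate 3. The other members of this role lay from 136 to 162 for Echs1, the hydratase, and from 74 to 100.03 for Decr1, the dienoyl-CoA reductase, with Eci1 and Eci2, isomerases of unsaturated chains, at 74.7 to 102 and 69.6 to 91.1 in 17 libraries. Acaa2, the mitochondrial thiolase, stood at 59.5 to 106 in 17 libraries and 219 in control replicate 3.

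Hadha and Hadhb, which code for the alpha and beta subunits of the same enzyme, are neighbours on chromosome 5 in opposite directions (30118304 to 30155162 on the minus strand and 30155248 to 30184593 on the plus strand). Their RefSeq promoter windows share 228 bases, and that of Hadhb is shown because most of it belongs to both windows.
Hadhb (chr5:30155003-30155302, plus strand): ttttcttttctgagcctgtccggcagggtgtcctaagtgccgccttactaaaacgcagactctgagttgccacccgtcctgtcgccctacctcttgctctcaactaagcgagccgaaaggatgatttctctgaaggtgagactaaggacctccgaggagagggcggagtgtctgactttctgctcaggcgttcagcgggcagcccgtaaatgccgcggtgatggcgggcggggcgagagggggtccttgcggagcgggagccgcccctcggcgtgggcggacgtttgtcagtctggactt
The pair, chosen after values were seen, ran at r = 0.86 over 18 libraries and 0.86 over 17 without control replicate 3. The ratio of the Hadhb to the Hadha level was 1.92 to 2.26 in 17 libraries and 1.68 in control replicate 3.

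The electron transfer flavoprotein carries electrons from the acyl-CoA dehydrogenases to the respiratory chain. Its beta subunit Etfb had 507, 424 and 447 in HFD+AOS-FMT, 529.96, 575 and 533 in HFD+control-FMT, 439.9, 449.6 and 431 in HFD+AOS, 518, 510.5 and 552 in HFD, 544, 488 and 500.03 in AOS and 566, 509.98 and 637 in control libraries. Both AOS-treated HFD groups lay below all HFD and control libraries, with log2 difference -0.31, SE 0.08, adjusted p = 0.064 for HFD+AOS-FMT against control and log2 difference -0.26, SE 0.08, adjusted p = 0.155 for HFD+AOS against HFD, neither past the threshold. Without control replicate 3 the adjusted p was 0.0377 for HFD+AOS against HFD. For HFD+AOS-FMT against control it was then 0.104 (log2 difference -0.23). The alpha subunit Etfa ran from 198 to 259 and had differences of 0.13 and 0.05 in the same 2 comparisons, and the pair, chosen after values were seen, ran at r = -0.57 over 18 libraries and -0.40 over 17. Etfdh, the oxidoreductase that accepts the electrons, ran from 63.3 to 85.9.

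Peroxisomal oxidation had 9 members, 1 of which passed. Acox3, an acyl-CoA oxidase of branched chains (chromosome 5, 35583040 to 35615352, plus strand), had 95.6, 104 and 115 in HFD+AOS-FMT, 103, 84.4 and 97.8 in HFD+control-FMT, 106, 122 and 97.8 in HFD+AOS, 76.5, 83.5 and 75.04 in HFD, 88.3, 84.4 and 89.6 in AOS and 88.9, 79.8 and 70.2 in control libraries. All libraries of the 3 treated HFD groups were above every HFD library. The level rose to 109 ± 12.3 in HFD+AOS, against 78.3 ± 4.52 in HFD libraries (log2 difference 0.46, SE 0.10, adjusted p = 0.0492). The call was lost without any 1 of the 6 libraries compared (adjusted p = 0.063 to 0.182) and its adjusted p was 0.0092 without control replicate 3. For HFD+AOS-FMT the adjusted p was 0.107 against HFD (log2 difference 0.41) and 0.056 against control (log2 difference 0.40). Without control replicate 3 these were 0.0216 (log2 difference 0.41) and 0.1 (log2 difference 0.31).

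Scp2, a carrier protein with a thiolase form, was the most abundant peroxisomal member, at 361 to 399.98 in 17 libraries and 315 in control replicate 3. Hsd17b4, the D-bifunctional enzyme, had 108, 98.3 and 90.8 in HFD+AOS and 86.5, 87.9 and 78.1 in HFD libraries, groups apart (log2 difference 0.23, SE 0.09, adjusted p = 0.205, and 0.0471 without control replicate 3). Ehhadh, the L-bifunctional enzyme, had 207, 204 and 208 against 226, 232 and 234 in the same comparison, below in all 3 (log2 difference -0.16, SE 0.11, adjusted p = 0.551), so the 2 bifunctional enzymes differed in sign. Acaa1a and Acaa1b, near-identical thiolases whose reads may be divided with error, ran from 62.97 to 79.2 and from 96.3 to 176. Abcd3, which imports fatty acids, ran from 97.8 to 122 in 17 libraries, and Pex11a, a factor of peroxisome division, from 28.1 to 39.1 in all 18. Hacl1, the lyase of alpha oxidation, was at 10.4 to 15.7 in 17 libraries and 78.02 in control replicate 3.

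The 2 fuel switch genes had no call. Mlycd, which breaks down malonyl-CoA, the inhibitor of Cpt1a, was at 34.01 to 40.5 in 17 libraries and 27.6 in control replicate 3. Pdk4, a kinase that turns off pyruvate dehydrogenase, had 7.86, 6.15 and 7.73 in HFD and 3.31, 3.96 and 6.01 in control libraries, above in all 3 (log2 difference 0.63, SE 0.35, adjusted p = 0.339).

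Control replicate 3 held the highest value of 18 members and the lowest of 11, 29 of 46, and the next library, HFD+AOS replicate 1, held 9. Of all tested genes 49.7% were highest and 9.38% lowest in control replicate 3, 59.1% together, so a total of 29 is near the share over all genes. The 2 directions taken apart are not, since members were less often highest and more often lowest there than all genes. The largest gaps were Hacl1, Acaa2 and Fabp3 above and Cd36 below, as given with their roles. Over the other 17 libraries the members were steady, with a ratio of highest to lowest level of 1.39 at the median of the 45 members other than Fabp1, under 2 for 40 of them. Of 18 known PPAR targets outside beta oxidation, 11 were highest and 2 lowest in control replicate 3, among the 11 Cyp4a14 (227, against 1.15 to 8.56) and Cyp4a10 (831, against 59.1 to 157), fatty acid hydroxylases named after their values were seen, whose reads may be shared with near-identical copies. Other beta and alpha oxidation enzymes had 5 of 18 highest and 11 lowest there, and ketone body enzymes 1 of 5 highest and 4 lowest. Adrenal cortex markers, all 6 highest there, the tubule injury sum (2979.8, against 340.3 to 774 elsewhere) and the low Kap share moved with these values, and their part was not tested.

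**Figure D5:**
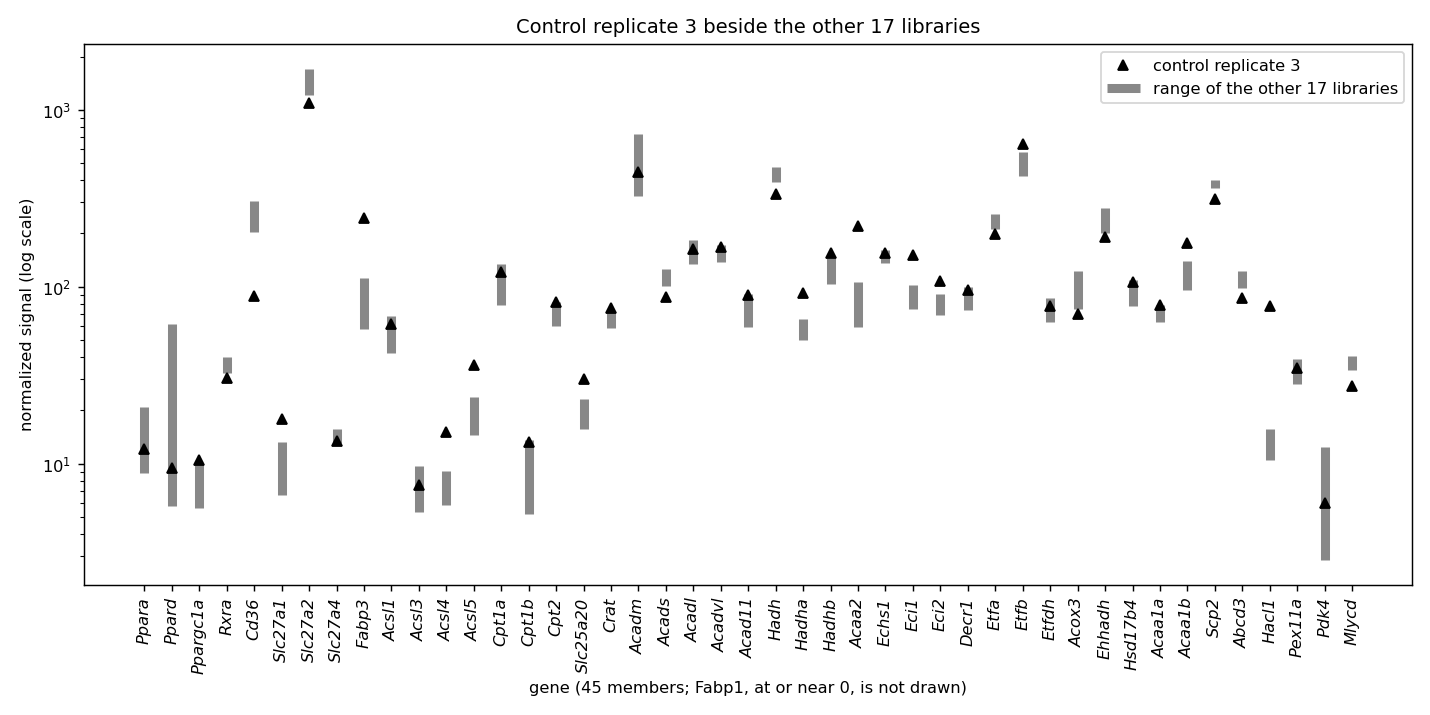
Level of 45 members (x axis, in role order, without Fabp1) on a log scale of normalized signal, with grey bars for the range of the other 17 libraries and triangles for control replicate 3. The triangle is above the bar for 18 members, counting Fabp1, which is not drawn, and below it for 11, with Hacl1 at 78.02 against 10.4 to 15.7.

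Beyond the 46 members, 8 further lists with 95 genes of the pathway, chosen with earlier results known, had 91 genes tested. In HFD+AOS against HFD 1 passed (0.823% of all genes did), Vldlr, a lipoprotein receptor, with 16.1, 14.8 and 14.7 in HFD+AOS and 12.3, 11.5 and 12.6 in HFD libraries (log2 difference 0.30, SE 0.06, adjusted p = 0.0348). In HFD+AOS-FMT against control 5 passed, all higher (2.32% of all genes passed). Among them were Acad10, an acyl-CoA dehydrogenase (51.03, 48.9 and 57.4 in HFD+AOS-FMT, 34.9, 33.8 and 29.1 in control libraries, log2 difference 0.67, adjusted p = 0.0055), Phyh, the hydroxylase that opens alpha oxidation of phytanic acid (0.52, adjusted p = 0.0308), Dgat2, which makes triglyceride (0.32, adjusted p = 0.0351), and Acsm1, a medium chain acyl-CoA synthetase (0.39, adjusted p = 0.0481). Acad10 did not overlap between those groups and was also above control in all 3 HFD libraries (43.4, 49.96 and 41.4). Acad10, Phyh, Dgat2 and Acsm1 each had their lowest value of all libraries in control replicate 3. Phyh had 924, 957 and 1064 in HFD+AOS-FMT and 791, 724 and 552 in control libraries. Differences without control replicate 3 are not given for these genes. The other 6 contrasts called 0 of the 91 genes in limma. At an unadjusted p under 0.05, counts among the 91 genes were 8 higher and 8 lower in HFD against control (17.4% of all genes in either direction), 5 and 8 in AOS against control (12.7%), 15 and 1 in HFD+AOS-FMT against HFD (13.3%), 3 and 0 in HFD+control-FMT against HFD (4.5%), 6 and 0 in HFD+AOS-FMT against HFD+control-FMT (7.02%), and 7 and 2 for the AOS change by diet (12.4%). In the 2 contrasts with calls they were 12 and 2 in HFD+AOS against HFD (15.1%) and 19 and 5 in HFD+AOS-FMT against control (19%). Most of these totals are near the share over all genes, and the last is above it. In HFD+AOS-FMT against HFD and in the 2 contrasts with calls, most of the counted genes were higher. Of the 16 tested PPAR targets outside beta oxidation 0 passed in any of the 8 contrasts, with 1 higher and 0 lower at an unadjusted p under 0.05 in HFD+AOS against HFD and 2 higher and 0 lower in HFD+AOS-FMT against HFD.

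The members whose log2 levels ran most like those that passed are given as a description over 18 libraries, which share group and depth. Ppara ran most like Cpt1a (r = 0.75), Acox3 (0.72) and Hsd17b4 (0.67), with 0.82, 0.76 and 0.82 over the 17 libraries without control replicate 3. Acox3 ran most like Slc27a2 (0.77), Ppara (0.72) and Hadh (0.66), and over the 17 with 0.71, 0.76 and 0.56. Ppard ran most like Rxra (0.62), Acsl1 (0.50) and Etfb (0.45), and over the 17 with 0.64, 0.58 and 0.65.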

How the data were processed

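Per the labels' protocols, total RNA (1 µg for each Illumina library) came from Trizol extracts of frozen kidney cleaned on columns. The submitters' processing notes name Bowtie 0.12.2 and mm10, with counter, annotation and normalization not given in the sources used here. Normalized signal per gene symbol, with no unit stated, is what the authors deposited. Its column sums varied by 3.5%, and by 0.815% after multiplication by transcript length, so levels were taken as scaled for length and depth. From 19545 entries, 26 symbols turned into dates and 1 of 2 entries of a repeated symbol (Plin2, the higher kept) were left out.

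The members and lists were chosen with earlier results of these data known. In limma 3.58.1 (R 4.3.3), log2(value + 1) of 12031 genes was fitted in 1 model of 6 groups with 12 residual degrees of freedom, trend and robust spread, two-sided, with Benjamini-Hochberg adjustment over all genes within each contrast at 0.05. All p-values are from it. The test was also tried on simulated data with independent noise and no outlying library. That setting differs from these data, and no result here rests on it. Named with their values are members that passed, the 3 with the smallest p per contrast and the most abundant per role. All others were chosen after their values were seen. 1 gene of the pathway lists is not reported here. The form of the depth estimate was settled after earlier forms had been run. Coordinates are from GENCODE M21 on GRCm38 and promoters from RefSeq.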

Additional observations from a re-analysis of the deposited data

How the results depend on the processing

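Over 24 named member differences and 366 values under other settings, 321 kept direction and side of the threshold, 33 lost the call, 12 gained it and 0 changed sign. A call could be lost only for the 5 differences that had passed, so the 321 are mostly differences that stayed uncalled. In HFD+AOS against HFD the call was kept in 9 of 15 other settings for Ppara and 4 of 15 for Acox3. In HFD+AOS-FMT against control it was kept in 12 of 14 for Ppara, 7 of 14 for Ppard and 7 of 14 for Slc27a2. Members called in HFD+AOS against HFD (2) were 1 without a filter on low values, with quantile normalization, without trend and robust estimation and with a replicate block, 6 in a fit of the compared groups only, 9 with array weights and 0 to 10 with 1 library left out (10 without control replicate 3). In HFD+AOS-FMT against HFD (0) they were 1 with a pseudocount of 0.1, 4 in the fit of the compared groups only, 6 with array weights and 0 to 5 with 1 library left out. In HFD+AOS-FMT against control (3) they were 0 in the fit of the compared groups only, 2 with the replicate block and 1 to 4 with 1 library left out. The F test (1) gave 8 with array weights and 1 to 7 with 1 library left out. Germ cell transcripts as a factor gave 0 in HFD+AOS against HFD, HFD+AOS-FMT against control and the F test. That factor was chosen after seeing the data, since the form planned, which included Smcp, could not be fitted, Smcp being present in all 18 libraries. The 5 other contrasts had 0 members called with any 1 library left out. Over all genes, leaving out 1 library gave 10 to 818 calls in HFD+AOS against HFD (99 with all), 0 to 585 in HFD+AOS-FMT against HFD (21), 61 to 784 in HFD+AOS-FMT against control (279) and 46 to 761 in the F test (123).

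The median member difference moved to -0.011 in HFD against control with quantile normalization, which moved that of all genes to 0.012, against -0.105 without it. In AOS against control it was -0.11 with quantile normalization, -0.056 with array weights and -0.215 to -0.073 with 1 library left out. In HFD+AOS-FMT against HFD it was 0.061 to 0.142 with 1 library left out. In HFD+AOS-FMT against control it was 0.06 with array weights, 0.066 with the germ cell factor and -0.038 to 0.073 with 1 library left out. For the AOS change by diet it was 0.11 with quantile normalization, 0.081 with array weights and 0.072 to 0.184 with 1 library left out. The cause of these changes was not tested.

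Deviations of same-numbered libraries of different groups correlated over genes at r = -0.159 to 0.260 (45 pairs, median -0.020, 5 over 0.1). Pairs with different numbers were not computed, so these values have no reference to be read against. Replicate numbers were taken as names only. With a number of reads unknown, how far low values such as those of Fabp1 are limited by depth cannot be given.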

Other observations

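Acadm was lowest and highest in the same libraries as Umod, the uromodulin gene of the thick ascending limb. In HFD+AOS replicate 1 Acadm stood at 325 and Umod at 440.2, and in HFD+AOS-FMT replicate 2 they stood at 728 and 1220.5. The other loop of Henle and distal tubule markers were mixed between these libraries, given in the same order. Slc12a1 (58.3 and 226.1) and Cldn16 (6.48 and 7.45) were also higher in the second. Slc12a3 (166.1 and 115.1), Pvalb (129.2 and 91.5) and Calb1 (143.8 and 114.95) were lower there. Ucp1, the uncoupling protein of brown fat, reached 62.5 in HFD+AOS-FMT replicate 2, the library with the highest Cpt1b (13.6) and Pdk4 (12.4), and 73.6 in HFD+AOS replicate 3, where Cpt1b was 8.22 and Pdk4 8. Brown fat markers summed to 103 to 231 in HFD+AOS-FMT, 49.7 to 120.03 in HFD+control-FMT, 45.1 to 231 in HFD+AOS, 116 to 198 in HFD, 58.01 to 82.99 in AOS and 74.9 to 106 in control libraries. Cox7a1, 1 of these markers, was at 42.3 to 99.4 in all libraries, so the sum does not measure brown fat alone. The control sum of 106 was control replicate 3, with Cox7a1 at 99.4, Ucp1 at 0.72 and Cidea, another of the markers, at 0.77. Cpt1b was 13.3 and Pdk4 6.01 in that library. In HFD replicate 1 Ucp1 was 42.85, with Cpt1b at 6.76 and Pdk4 at 7.86. These genes were chosen after their values were seen, and what part segment or fat content has in them was not tested.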
